A study of Homo sapiens with 4 samples.

Results

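Intestinal identity was followed through 9 genes that mark the colonic epithelial lineage, chosen by name from the 58735 genes of the deposited tables: the transcription factors CDX1, CDX2 and HNF4A, the differentiation and brush border proteins VIL1 and KRT20, and the surface and secreted proteins GPA33, LGALS4, CDH17 and EPCAM. The rule that lists them uses no measured value, but the genes were chosen with earlier results of these data known. The cells were HCT116, an established human colorectal carcinoma line that is widely used as a model of this cancer. They were transfected either with a control siRNA (2 libraries) or with siRNA against KIF26B, a kinesin family gene (2 libraries), and poly(A) RNA was sequenced after 48 h in both groups. The study designed 2 siRNAs for KIF26B. The sources used here do not say which 1 each library received, so the KIF26B siRNA pair may differ in reagent.

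In the colon, stem cells at the base of the crypt give rise to cells that mature as they move toward the surface. CDX1 and CDX2 are homeobox transcription factors that set the intestinal programme, and HNF4A is a nuclear receptor that acts with them on genes of the mature absorptive cell. Villin (VIL1), which bundles actin in microvilli, keratin 20 (KRT20), GPA33, galectin 4 (LGALS4) and cadherin 17 (CDH17) are expressed as those cells differentiate, whereas EPCAM is an adhesion protein of most simple epithelia, crypt cells included.

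Of these 9 genes, HCT116 expressed 3 at a mean of 1 FPKM or more (fragments per kilobase of gene, scaled to the size of the library, so that genes can be compared per length). EPCAM was abundant, CDX2 and HNF4A were present at low levels, and the other 6 members lay below 1 FPKM in every library. CDX1 was listed at 0 throughout. The difference between the groups did not pass the test for any of these 3. In bulk RNA, fewer cells that express a gene and less RNA per cell cannot be told apart.

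Promoter sequences are shown for the 2 transcription factors that were detected and for KRT20, the highest of the members below 1 FPKM. They come from RefSeq (GRCh38.p14), run 5′ to 3′ on the strand of the gene, and cover 250 bases before to 50 bases after an annotated transcription start. RefSeq entries matched 5 of the 9 members, and HNF4A has 2 starts. Capitals mark matches, on either strand, to 5 short motifs that were picked after the values and the promoter sequences had been seen: TTTATG, a core of CDX sites, GTTAAT, a piece of the HNF1 site, TATAAA, the core of the box of that name, CAAAGTCCA, a core of HNF4 sites, and GATAAG, a core of sites for factors of the GATA family. The CDX core read on its other strand, CATAAA, and the box motif differ in 1 letter, and no motif contains another.
HNF4A upstream start, chr20:44355449-44355748 (+): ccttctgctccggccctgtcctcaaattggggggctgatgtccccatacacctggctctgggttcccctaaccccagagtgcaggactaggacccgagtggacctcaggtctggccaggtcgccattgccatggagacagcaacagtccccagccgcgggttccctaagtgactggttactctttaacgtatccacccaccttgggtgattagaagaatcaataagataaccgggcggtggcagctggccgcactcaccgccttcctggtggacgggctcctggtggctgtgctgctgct
HNF4A downstream start, chr20:44400989-44401288 (+): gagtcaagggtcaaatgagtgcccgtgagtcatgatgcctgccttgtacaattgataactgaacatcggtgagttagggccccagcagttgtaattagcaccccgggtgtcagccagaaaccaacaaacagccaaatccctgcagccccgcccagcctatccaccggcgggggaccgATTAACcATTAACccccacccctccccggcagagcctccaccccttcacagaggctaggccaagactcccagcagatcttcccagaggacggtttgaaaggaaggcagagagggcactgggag
CDX2, chr13:27969266-27969565 (-): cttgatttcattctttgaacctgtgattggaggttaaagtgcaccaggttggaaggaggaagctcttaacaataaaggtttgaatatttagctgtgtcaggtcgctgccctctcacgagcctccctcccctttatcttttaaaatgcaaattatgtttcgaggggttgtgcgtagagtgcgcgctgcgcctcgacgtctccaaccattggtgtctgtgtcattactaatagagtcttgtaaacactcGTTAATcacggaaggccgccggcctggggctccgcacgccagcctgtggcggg
KRT20, chr17:40885193-40885492 (-): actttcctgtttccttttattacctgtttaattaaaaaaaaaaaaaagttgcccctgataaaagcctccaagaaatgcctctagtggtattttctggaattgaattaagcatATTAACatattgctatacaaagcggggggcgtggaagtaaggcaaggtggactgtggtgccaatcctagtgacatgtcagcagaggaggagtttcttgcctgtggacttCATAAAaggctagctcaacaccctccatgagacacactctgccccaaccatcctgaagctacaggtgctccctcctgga

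The downstream HNF4A window held the HNF1 motif at both 73 and 66 bases before the start, and the upstream window held none of the 5 motifs. Only exact letters were matched, so a window without a match may still hold a site that differs in its letters, for HNF1 as for the others. The CDX2 window held the HNF1 motif 3 bases before its start. KRT20 held it 138 bases before the start and held the CDX core, in the orientation CATAAA, 29 bases before the start. Among 35116 promoter windows of the same length, 6.883% held the HNF1 motif, 10.58% the CDX core, 11.53% the TATA box, 0.3844% the HNF4 core and 6.365% the GATA core. Of the other matched members, LGALS4 held 1 GATA core 244 bases before its start and GPA33 held none of the motifs. The number of CG dinucleotides was 16 for CDX2, 11 and 9 for the upstream and downstream HNF4A windows, 7 for LGALS4, 2 for KRT20 and 0 for GPA33, against a median of 14 over all windows. These matches describe letters only, and the expression values are per gene, so transcripts from the 2 HNF4A starts cannot be separated.

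Each library gave an estimated 19746375 to 25593022 reads on genes, as recovered from the steps of the FPKM values. The library sizes behind the FPKM scaling, recovered in the same way, ran from 18068934 to 24673739. They lay below the recovered reads in every library, so the recovered totals may be too high. Whether the scaling or the recovered gene lengths account for this was not tested. KIF26B itself was low. Control siRNA gave 0.110 and 0.205 FPKM, and the libraries labelled KIF26B siRNA gave 0.140 and 0.0307 FPKM, from 31, 73, 43 and 8 reads. The first library labelled KIF26B siRNA therefore lay between the controls for the targeted gene, and KIF26B siRNA here and in what follows means the libraries so labelled. The pooled read rate was 0.551 times the control rate (95% interval 0.386 to 0.777, counting error only). The KIF26B siRNA libraries also differed more from each other than the controls did: the median squared difference between a pair, in units of the counting noise, was 16.4 for KIF26B siRNA and 2.38 for control siRNA. Mitochondrial genes took 6.63% and 6.64% of the recovered reads in control siRNA and 9.32% and 7.48% in KIF26B siRNA. Their part in the results that follow was not tested.

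Of 14523 genes that averaged 1 FPKM or more over the 4 libraries, limma on log2(FPKM + 1) placed 206, or 1.42%, past the thresholds of the study's methods, an unadjusted P below 0.05 with a log2 difference beyond 1. Of all genes tested, 0.606% were lower and 0.813% were higher with KIF26B siRNA. An unadjusted P below 0.05 alone was met by 16.4%, and 0 genes (0%) had an adjusted p below 0.05, the smallest adjusted p being 0.242. Nothing in these data tells separate cultures from repeat preparations, so the P values measure the spread between these libraries, which may be technical. An exact permutation test of 2 against 2 libraries cannot give a two-sided p below 0.33.

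Among the members, 0 of 3 tested passed these thresholds and 0 of 3 had an unadjusted P below 0.05. The KIF26B siRNA and control values did not overlap for 1 of the 3 (HNF4A), where 52.6% of all genes tested did not overlap. The median log2 difference was 0.08 over the 3 members and -0.01 over all genes tested. The remaining 6 members did not reach the filter, so their differences are given as ratios of read rates, with limma values without the filter for some.

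**Figure D1:**
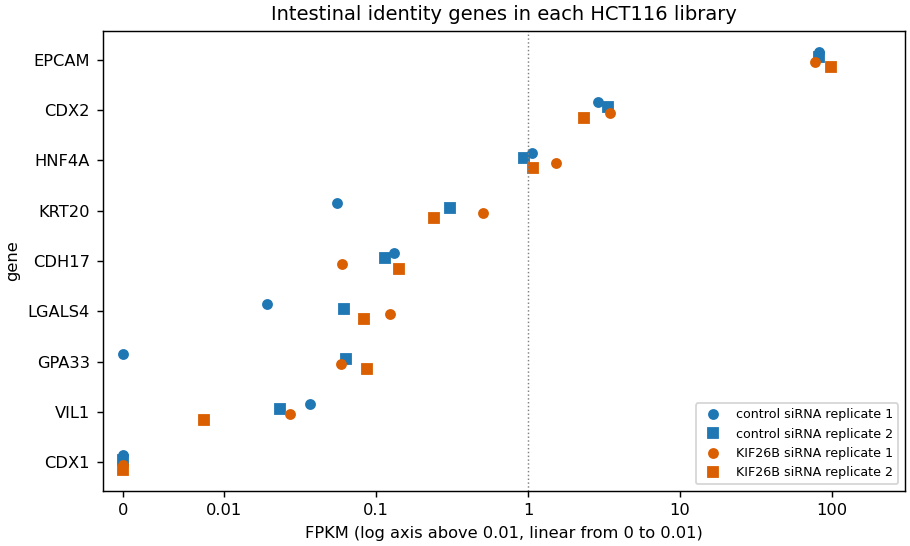
FPKM of the 9 intestinal identity genes (vertical axis) in each of the 4 HCT116 libraries (horizontal axis, logarithmic above 0.01 FPKM and linear below; dotted line at 1 FPKM). Each point is 1 library, blue for control siRNA and orange for KIF26B siRNA; EPCAM lies between 76.97 and 98.6 FPKM, CDX2 between 2.32 and 3.44 FPKM, and 6 genes stay below 1 FPKM.

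The level of the members, as the mean FPKM of the 4 libraries, fell in the order EPCAM (85.0), CDX2 (2.9996), HNF4A (1.16), KRT20 (0.277), CDH17 (0.112), LGALS4 (0.0720), GPA33 (0.0521), VIL1 (0.0238) and CDX1 (0). EPCAM stood 28.3-fold above CDX2, CDX2 2.60-fold above HNF4A and HNF4A 4.16-fold above KRT20, and the ranges of these neighbours over the 4 libraries did not overlap. From KRT20 down to VIL1 each gene overlapped the next, so the order of neighbours among those 5 is not resolved, although the lowest values of KRT20 (0.0552) and CDH17 (0.0600) lay above the highest of VIL1 (0.0368). EPCAM made up 94.8% of the summed FPKM of the 9 genes. The 6 lowest members together reached 0.537 FPKM, from 124 reads in all 4 libraries.

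CDX1 (ENSG00000113722, chromosome 5, 150166778 to 150184558, + strand, GRCh38.p14) is the CDX factor that marks the lower crypt and is often lost in colorectal cancer lines. It had 0 reads in each of the 4 libraries. Over its 1775 annotated exon bases, a limit of 3 reads corresponds to 0.0861 and 0.0685 FPKM with control siRNA and to 0.0791 and 0.0935 FPKM with KIF26B siRNA. Any CDX1 transcript below those levels was not detectable at this depth, and no fold change can be given.

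CDX2 (ENSG00000165556, chromosome 13, 27960918 to 27969315, - strand) is the master regulator of intestinal identity and the diagnostic nuclear marker of colorectal tumours. Its values were 2.89 and 3.34 FPKM with control siRNA and 3.44 and 2.32 FPKM with KIF26B siRNA, from 234, 340, 303 and 173 reads. Both the highest and the lowest library carried KIF26B siRNA, so the groups overlapped. The means were 3.12 ± 0.319 and 2.88 ± 0.791 FPKM (SD, n = 2 each), and the log2 difference was -0.10 (SE 0.19, 95% interval -0.63 to 0.43, limma adjusted p = 0.820). The difference had the opposite sign, 0.11, when the second KIF26B siRNA library was left out. Within the KIF26B siRNA pair the second library ran at 0.675 times the read rate of the first (interval 0.557 to 0.816), and within the control pair the ratio was 1.16 (0.976 to 1.37). The difference between the groups in CDX2 was thus smaller than the spread between the 2 libraries of the KIF26B siRNA group.

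HNF4A (ENSG00000101076, chromosome 20, 44355699 to 44434596, + strand) maintains the gene programme of the differentiated absorptive cell. It measured 1.07 and 0.942 FPKM with control siRNA and 1.53 and 1.08 FPKM with KIF26B siRNA, from 153, 170, 239 and 143 reads. Both KIF26B siRNA values lay above both control values, but the nearest pair was 1.08 against 1.07 FPKM. The means were 1.004 ± 0.0875 and 1.31 ± 0.317 FPKM (SD, n = 2 each), with a log2 difference of 0.20 (SE 0.15, 95% interval -0.22 to 0.61, limma adjusted p = 0.553). The pooled read rate was 1.33 times that of the control (interval 1.14 to 1.55, counting error only), while the KIF26B siRNA libraries differed from each other by a ratio of 0.707 (0.571 to 0.874). The log2 difference was 0.06 without the first KIF26B siRNA library and 0.34 without the second. The antisense gene HNF4A-AS1 had 1, 2, 0 and 0 reads in the same order of libraries, and counting by strand is not stated in the sources used here.

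The genes whose profile lay nearest to that of HNF4A, the tested member with the largest absolute difference, were DHODH, GATAD2A and PRKAR2A. Likeness was the Euclidean distance between centred log2(FPKM + 1) values over the 4 libraries, and it came to 0.0198, 0.0210 and 0.0224. DHODH, an enzyme of pyrimidine synthesis, ran at 3.83 and 3.51 FPKM with control siRNA and 4.85 and 3.77 FPKM with KIF26B siRNA. With 4 libraries and 14523 genes, near matches of this kind describe a shape and no more.

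**Figure D2:**
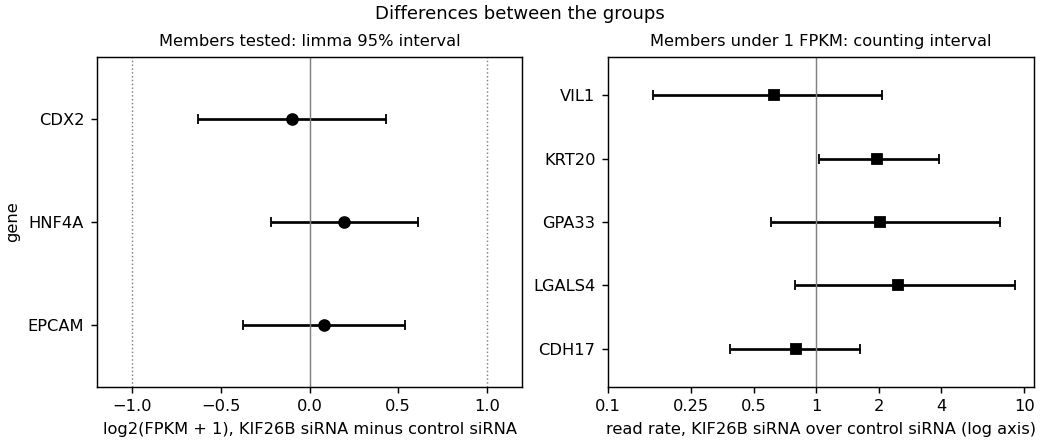
Left, log2(FPKM + 1) of KIF26B siRNA minus control siRNA for the 3 members tested, with the limma 95% interval and dotted lines at -1 and 1; the intervals of CDX2, HNF4A and EPCAM all include 0. Right, the read rate of KIF26B siRNA over control siRNA (log axis) with 95% counting intervals for 5 members below 1 FPKM; the intervals of 4 genes include 1, and that of KRT20 runs from 1.03 to 3.89.

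VIL1 (ENSG00000127831, chromosome 2, 218419123 to 218453295, + strand) was barely detected. It had 5 and 4 reads with control siRNA and 4 and 1 with KIF26B siRNA, or 0.0368, 0.0234, 0.0271 and 0.00800 FPKM. The read rate of KIF26B siRNA over control was 0.624 (interval 0.164 to 2.07), a range too wide to give a direction. The gene span of VIL1 overlaps that of USP37 on the opposite strand, and USP37 had 294, 368, 276 and 249 reads. Whether exons of the 2 genes overlap was not examined, so it is not known whether strand matters for these few reads.

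KRT20 (ENSG00000171431, chromosome 17, 40875889 to 40885242, - strand), the keratin of the upper crypt and surface epithelium, had 2 and 14 reads with control siRNA and 20 and 8 with KIF26B siRNA. These are 0.0552, 0.307, 0.507 and 0.240 FPKM. The pooled read rate was 1.97 times the control rate (interval 1.03 to 3.89), but the second control library itself ran at 5.57 times the first (1.28 to 50.5) and lay between the KIF26B siRNA libraries. With no filter on low values limma gave a log2 difference of 0.22 (adjusted p = 0.732). The ratio therefore did not exceed the spread between the control libraries.

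GPA33 (ENSG00000143167, chromosome 1, 167052836 to 167090377, - strand), a surface antigen of intestinal epithelium, had 0 and 5 reads with control siRNA and 4 and 5 with KIF26B siRNA. The FPKM values were 0, 0.0633, 0.0585 and 0.0865, and the limit for the control library at 0 was 0.0478 FPKM. The read rate ratio was 2.02 (0.609 to 7.68), and the groups overlapped.

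LGALS4 (ENSG00000171747, chromosome 19, 38801674 to 38812945, - strand), a secreted galectin of the digestive tract, had 1 and 4 reads with control siRNA and 7 and 4 with KIF26B siRNA. Its FPKM values, 0.0193 and 0.0613 against 0.124 and 0.0837, did not overlap between the groups. Without the filter, 39.1% of the genes detected did not overlap, and the read rate ratio of 2.47 had an interval from 0.792 to 9.07. The limma adjusted p without the filter was 0.732 for LGALS4.

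CDH17 (ENSG00000079112, chromosome 8, 94127162 to 94217278, - strand), the cadherin that joins enterocytes and a target of CDX2, had 10 and 11 reads with control siRNA and 5 and 10 with KIF26B siRNA. The values were 0.131, 0.114, 0.0600 and 0.142 FPKM, with the KIF26B siRNA libraries on either side of the controls. The read rate ratio was 0.803 (0.385 to 1.63).

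EPCAM (ENSG00000119888, chromosome 2, 47369311 to 47387020, + strand) was the one member at a high level. It measured 82.2 and 82.3 FPKM with control siRNA and 76.97 and 98.6 FPKM with KIF26B siRNA, from 4067, 5114, 4142 and 4489 reads. The controls had a mean of 82.3 ± 0.0218 FPKM (SD, n = 2), and the KIF26B siRNA libraries fell on either side of them, with a mean of 87.8 ± 15.3 FPKM. The log2 difference was 0.08 (SE 0.16, 95% interval -0.38 to 0.54, limma adjusted p = 0.825). It was -0.095 without the second KIF26B siRNA library and 0.26 without the first. In control siRNA 99.3% of the 58735 genes had a lower FPKM than EPCAM, against 83.3% for CDX2 and 75.5% for HNF4A.

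The other genes of the intestinal programme were taken from 6 lists, which held 136 genes beside the members. Of these, 21 were at 0 in all libraries and 62 were tested. Past the thresholds was 1 gene, CA2, which is 1.61% of the 62 against 1.42% of all genes tested. An unadjusted P below 0.05 was met by 14 (22.6%, against 16.4% of all genes), 12 of them lower and 2 higher with KIF26B siRNA. Directions at this cutoff were not counted over all genes, so the split has no background share to be set against. The groups did not overlap for 37 (59.7%, against 52.6% of all genes), and the median log2 difference was -0.08. None of the 62 had an adjusted p below 0.05.

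**Figure D3:**
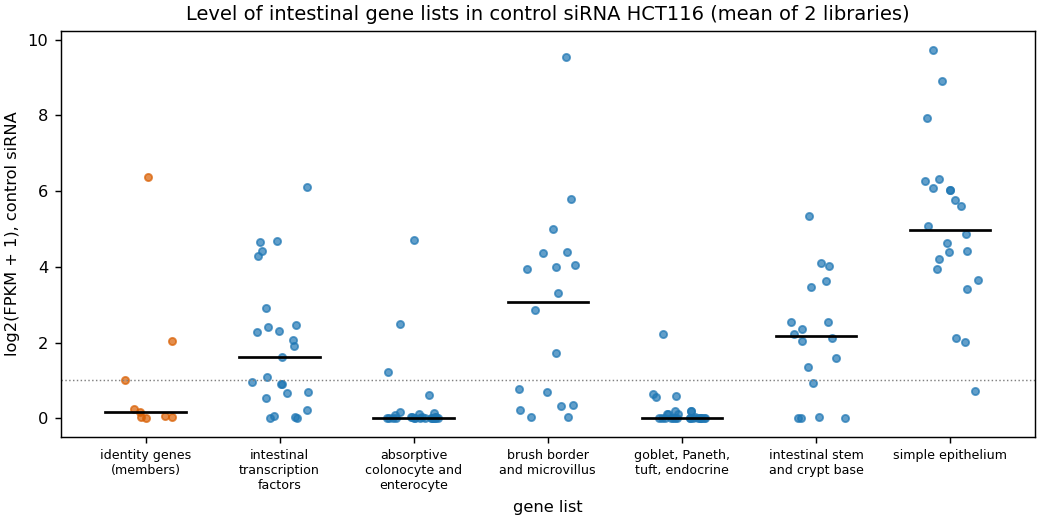
Level of the 9 members (orange) and of the 6 other intestinal lists (blue) in control siRNA HCT116, as log2 of the mean FPKM of 2 libraries plus 1. Each point is a gene, the bar is the list's median and the dotted line is 1 FPKM; the medians of the absorptive and the secretory lists lie near 0, with 0.0139 and 0.0108 FPKM, and that of simple epithelium is highest at 30.4 FPKM.

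Among 25 intestinal transcription factors, 2 were at 0 in all libraries (GATA4 and GATA5) and 14 were tested. The 3 with the highest level were SOX9, a crypt factor, at 68.5 ± 0.417 FPKM in control siRNA and 61.3 ± 6.44 FPKM in KIF26B siRNA, TCF7L2, the nuclear partner of β-catenin, at 24.2 ± 0.710 and 29.4 ± 3.42 FPKM, and KLF5, which supports crypt proliferation, at 24.7 ± 0.239 and 26.8 ± 0.637 FPKM. Their limma adjusted p values were 0.572, 0.407 and 0.624. At an unadjusted P below 0.05, met by 16.4% of all genes, GATA6 was lower and EHF higher among the 14. GATA6 measured 4.34 ± 0.0940 FPKM and 2.58 ± 0.195 FPKM (log2 difference -0.58, adjusted p = 0.242). EHF, an epithelial ETS factor, measured 6.58 ± 0.317 FPKM and 13.8 ± 2.84 FPKM (log2 difference 0.95, adjusted p = 0.242).

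The absorptive colonocyte and enterocyte list was mostly near 0. Of its 27 genes, 8 were at 0 in all libraries, fatty acid binding protein FABP1 and the guanylins GUCA2A and GUCA2B among them, and 3 were tested. CA2, carbonic anhydrase of the colonic surface cell, was the one past the thresholds. It measured 24.2 and 26.3 FPKM with control siRNA and 10.7 and 9.67 FPKM with KIF26B siRNA, and the groups stood well apart. The means were 25.3 ± 1.51 and 10.2 ± 0.738 FPKM (SD, n = 2 each), with a log2 difference of -1.23 (SE 0.12, limma adjusted p = 0.242). The sulfate transporter SLC26A2 measured 4.63 ± 0.118 and 3.54 ± 0.407 FPKM (adjusted p = 0.331), and the brush border peptidase DPP4 1.32 ± 0.201 and 0.777 ± 0.223 FPKM (adjusted p = 0.325). Both DPP4 values with KIF26B siRNA, 0.934 and 0.619 FPKM, lay below 1 FPKM, so DPP4 reached the filter only through the control libraries. It is among the list genes counted above as not overlapping.

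The brush border and microvillus list, to which villin belongs by function, held 18 further genes. All had reads in some library, 11 were tested and the other 7 had a mean below 1 FPKM, down to 0.0241 FPKM for ANKS4B, near the 0.0238 FPKM of VIL1. Ezrin (EZR), which ties the membrane to actin, was the highest at 742 ± 6.87 FPKM in control siRNA and 748 ± 299 FPKM in KIF26B siRNA (adjusted p = 0.949). NHERF1, the scaffold that binds ezrin, followed at 54.7 ± 0.412 and 39.7 ± 4.31 FPKM (log2 difference -0.46, adjusted p = 0.272), and EPS8L2 at 30.8 ± 0.515 and 35.5 ± 8.36 FPKM (adjusted p = 0.683). PLS1, the fimbrin that bundles microvillar actin beside villin, measured 15.01 ± 0.116 and 10.0 ± 1.92 FPKM (log2 difference -0.55, adjusted p = 0.274). Of the 11 tested, NHERF1 and PLS1 were the 2 genes at an unadjusted P below 0.05, which 16.4% of all genes met.

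Secretory genes were low. Of 27 goblet, Paneth, tuft and enteroendocrine genes, 11 were at 0 in all libraries, the trefoil factors TFF1, TFF2 and TFF3 among them, and 1 was tested, the transcription factor GFI1 at 3.71 ± 0.0790 and 3.43 ± 0.177 FPKM (adjusted p = 0.713). The next highest were FCGBP and KLK1, with mean levels of 0.710 and 0.551 FPKM over the 4 libraries.

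The stem and crypt base list held 18 genes, all with reads in some library, of which 13 were tested. LGR5, the receptor that marks crypt base stem cells, had 3, 0, 2 and 2 reads, and ASCL2, SMOC2 and OLFM4 had at most 2 reads in any library. CD44 (39.5 ± 0.893 and 44.4 ± 0.134 FPKM, adjusted p = 0.497), the cotransporter SLC12A2 (16.2 ± 0.126 and 10.1 ± 5.70 FPKM, adjusted p = 0.427) and the Polycomb protein BMI1 (15.4 ± 0.0839 and 10.8 ± 1.52 FPKM, adjusted p = 0.274) were the highest. At an unadjusted P below 0.05, met by 16.4% of all genes, 3 of the 13 were lower (EPHB3, LRIG1 and BMI1) and 0 were higher.

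Simple epithelial genes were the most abundant, and 21 of 22 were tested. KRT19 measured 852 ± 14.1 and 936 ± 21.1 FPKM (adjusted p = 0.573). KRT8 measured 483 ± 2.31 and 359 ± 13.0 FPKM and its partner KRT18 244 ± 1.54 and 171 ± 5.23 FPKM, with log2 differences of -0.43 and -0.51 (limma adjusted p = 0.254 and 0.242). At an unadjusted P below 0.05, met by 16.4% of all genes, 5 of the 21 were lower (KRT8, KRT18, CLDN3, ESRP1 and ST14) and RAB25 was higher. Of these ST14, the protease matriptase, had the largest difference, from 76.7 ± 2.01 to 40.0 ± 3.65 FPKM (log2 difference -0.93, adjusted p = 0.242). CLDN7, a claudin that binds EPCAM, was named after its values were seen. It measured 55.0 and 52.3 FPKM with control siRNA and 63.1 and 134 FPKM with KIF26B siRNA. As for EPCAM, the second KIF26B siRNA library was the highest, and the adjusted p was 0.408.

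**Figure D4:**
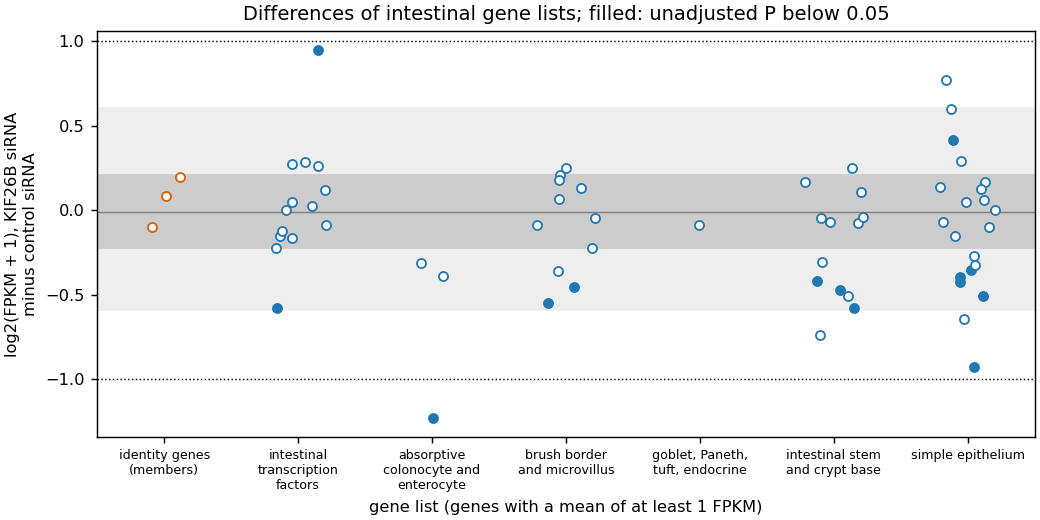
log2(FPKM + 1) of KIF26B siRNA minus control siRNA for the genes tested in the members (orange) and the 6 other lists (blue), filled where the unadjusted P of limma was below 0.05. The grey bands hold the middle 50% and 90% of all 14523 genes tested and dotted lines mark -1 and 1; the 3 members lie inside the inner band, between -0.10 and 0.20, and CA2 is the one point beyond a dotted line.

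Markers of other cell types were low. Of 11 colonic epithelial markers, which include the members other than HNF4A together with KRT8 and KRT18, 5 were tested and 1 (CDX1) was at 0 in all libraries. The list's summed level, nearly all of it from KRT8, KRT18 and EPCAM, ranged from 813 to 818 FPKM in control siRNA and from 621 to 627 FPKM in KIF26B siRNA. Gastric markers summed to 1.55 to 1.66 FPKM in control siRNA and 1.75 to 2.46 FPKM in KIF26B siRNA, with 3 of 9 at 0 (GKN1, GKN2 and TFF2). Only 1 of the 9, ANXA10, was tested, and it did not pass the thresholds. It measured 0.731 and 0.962 FPKM with control siRNA and 1.63 and 1.10 FPKM with KIF26B siRNA, so it reached the filter only through the KIF26B siRNA libraries. Its groups did not overlap, as for 52.6% of all genes tested. Squamous markers summed to 0.659 to 0.719 FPKM and 2.27 to 6.57 FPKM, with IVL alone at 0 in every library among the 7. The highest of them in every library was KRT13, which measured 0.472, 0.557, 6.38 and 1.99 FPKM and was the only squamous marker tested. Its control values lay below 1 FPKM, so it reached the filter only through the KIF26B siRNA libraries. KRT13 was the marker past the thresholds, which 1.42% of all genes tested passed (log2 difference 1.63, SE 0.47, limma adjusted p = 0.272). The defining squamous factor TP63 had 0, 0, 1 and 0 reads. Hepatocyte markers summed to at most 1.37 FPKM and endothelial markers to at most 0.402 FPKM in any library, with TTR and APOH at 0. Leukocyte markers reached at most 0.701 FPKM, with CD3E at 0. Fibroblast and mesenchymal markers summed to 8.50 to 8.81 FPKM in control siRNA and 5.999 to 9.85 FPKM in KIF26B siRNA, of which COL1A1 gave 7.13 ± 0.125 and 6.72 ± 2.79 FPKM, while COL1A2 had 0, 1, 0 and 0 reads.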

How the data were processed

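The 4 HCT116 libraries were grouped by the sample labels, 2 per group. Per the labels and the study's methods, the authors enriched poly(A) RNA, sequenced paired ends and aligned with HISAT2 (version 2.0.5 in the submitters' processing notes), counting with featureCounts 1.5.0-p3. The study's methods name genome build hg19 and the processing notes hg38. The deposited values are FPKM, 1 per gene and library, with no columns of the authors' own comparisons. Whether counting used strand is not given in the sources used here.

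Identifiers were matched to GENCODE release 44 for GRCh37, which gave a symbol for 56513 of 58735. Of the matched genes, 4217 are marked there as added since the last native GRCh37 release, so the authors' annotation was not that release. Coordinates are therefore printed from RefSeq on GRCh38.p14, as are the promoter windows.

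The main test was limma 3.58.1 (R 4.3.3) on log2(FPKM + 1) for the 14523 genes averaging 1 FPKM or more, without covariates, with Benjamini-Hochberg adjustment over all genes tested. Differences are on the log2(FPKM + 1) scale, which understates the change of low genes. With 2 libraries per group the fit had 2 residual degrees of freedom. The test was run on simulated reads with known changes and the same spread in both groups. That run does not show how the test behaves where the KIF26B siRNA pair differs more than the controls, as here. Whole reads were recovered from the FPKM by trying gene lengths until the values in all 4 libraries became whole within 0.002 plus a small term that grows with the reads. For genes with few reads several lengths can meet this, so their reads are estimates. The summed reads of each library are estimates too, because they exceed the library size used in the FPKM scaling. Ratios of read rates have exact 95% intervals, and a count of 0 was given a limit of 3 reads; both cover counting error only.

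The genes, lists and motifs were chosen with earlier results of these data known. All 9 members are named, as is KIF26B. In each other list, the genes past the thresholds, or the 3 with the highest level, and the genes at an unadjusted P below 0.05 are named, and any further gene was picked with its values in view. Most genes of the lists enter the counts without being named. Alternatives were another scaling, pseudocount and filter, a variance trend, limma-voom on the recovered reads, the replicate number as a block, and each library left out.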

Additional observations from a re-analysis of the deposited data

How the results depend on the processing

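No member passed the thresholds under the 12 alternatives run, adjusted p included, and CA2 remained past the thresholds of the study's methods under all 11 that refitted it, with log2 differences from -1.31 to -1.16. The counts and directions of the members turned on the KIF26B siRNA libraries. When 1 library was left out, which assumes that the lone library of its group varies like the other group, between 0 and 1 member had an unadjusted P below 0.05. That member was EPCAM without KIF26B siRNA replicate 1 (log2 difference 0.26, limma P = 0.0295, where no exact permutation test can reach 0.05) and HNF4A without KIF26B siRNA replicate 2 (0.34, limma P = 0.0285, with the same limit on an exact test). In those fits 46.6% and 39.9% of all genes had a P below 0.05, against 16.4% with all libraries, and 2507 genes without KIF26B siRNA replicate 1 had an adjusted p below 0.05. With 1 library left out, CDX2 ranged from -0.31 to 0.11 and EPCAM from -0.095 to 0.26, and both changed sign without KIF26B siRNA replicate 2 (CDX2 0.11, EPCAM -0.095). The range of the limma adjusted p over the alternatives was 0.134 to 0.99995 for CDX2, 0.0943 to 0.9996 for HNF4A, 0.0798 to 0.9996 for EPCAM and 0.0463 (without KIF26B siRNA replicate 1) to 0.9996 for CA2. Members whose groups did not overlap numbered 1 in the main test, 2 with no filter, 0 with at least 1 FPKM in every library (where HNF4A was not tested), and 1 to 3 with 1 library left out. List genes past the thresholds rose from 1 to 2 (CA2 and EHF) when the pseudocount was 0.1, and likewise under limma-voom on recovered reads. With 1 library left out they ranged from 1 to 4: CA2 with CLDN7, ST14 and SLC12A2 without KIF26B siRNA replicate 1, and CA2 with EHF and KRT7, 3 in all, without KIF26B siRNA replicate 2. Over all genes, 203 lower and 217 higher genes were past the thresholds at a pseudocount of 0.1, 204 and 196 under limma-voom, 52 and 69 with at least 1 FPKM in every library, and 193 and 334 or 223 and 157 without KIF26B siRNA replicate 1 or 2, against 88 and 118. Without control siRNA replicate 1 they were 135 and 167.

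Deviations from the group means showed no shared pattern between libraries of the same replicate number (correlation over genes -0.003). This cannot tell whether those libraries were made together. With the replicate number as a block, 0 members passed the thresholds or had an unadjusted P below 0.05, their median log2 difference was 0.08, and 98 lower and 135 higher genes were past the thresholds. The depth limits what can be said of the 6 members below 1 FPKM, which had 18, 38, 40 and 28 reads in all in the 4 libraries.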
